A study of Homo sapiens with 6 samples.

Results

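The E2F factors and the pocket proteins were followed in H9 cells through the transcripts of 10 genes, E2F1 to E2F8, RB1 and RBL1, taken by symbol from 61541 genes counted by bulk RNA-seq. All 10 members passed the filter on low counts, together with 17678 genes in all. H9 is a human cutaneous T-cell lymphoma line, a clone derived from the HuT 78 line, and its genotype is given as WT in the labels. The cells received vehicle (DMSO, 3 libraries) or AZD4573, a selective inhibitor of CDK9, the kinase that releases paused RNA polymerase II into elongation (50 nM for 4 h, 3 libraries). The legends and the sample titles give 4 h, and the discussion of the study gives a longer exposure. Nothing in the labels says that libraries of a group came from separate cultures, so p-values measure only the spread between these libraries, which may be technical. The question was how these regulators of cell cycle entry stood upon CDK9 antagonism.

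E2F factors bind DNA, mostly with a dimerization partner of the DP family, at the promoters of genes needed for DNA replication. E2F1, E2F2 and E2F3 are classed as activators, E2F4 and E2F5 as repressors that work with pocket proteins, E2F6 as a repressor that joins a Polycomb complex, and E2F7 and E2F8 as atypical repressors that bind DNA without a DP partner. The pocket proteins, encoded by RB1, RBL1 and RBL2, hold E2F factors inactive in resting cells and release them when cyclin-dependent kinases phosphorylate them in G1. E2F genes are themselves among the known E2F targets, and proliferating lymphoma cells carry much of this program.

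Total counts were 70367303 to 76571157 with DMSO and 52101868 to 63795185 with AZD4573. A count of 0, taken as allowing 3 counts, corresponds to at most 0.0392 to 0.0576 CPM in a library (CPM, a gene's counts scaled to a common library total, here and for the markers without TMM), for counting error only. Of the 7 T-cell markers, 6 exceeded 1 CPM, and the summed level was 862 to 882 CPM with DMSO and 965 to 978 CPM with AZD4573, whereas CD2 was near 0 (0.109 and 0.0116 CPM). Of the markers of other cell types, CD79A of B cells (59.9 and 90.2 CPM with DMSO and AZD4573), EPCAM of epithelium (161 and 129.7 CPM) and COL1A1 of fibroblasts (6.55 and 3.77 CPM) exceeded 1 CPM, whereas MS4A1, KRT8, KRT18, COL1A2, DCN and the myeloid and NK markers were under 1 CPM and HBB was at 0. The part of these markers in the results was not tested. In bulk libraries, fewer cells of a type and less RNA per cell cannot be told apart.

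Promoters of E2F genes are shown first because several carry the sequence that E2F factors recognize. In the RefSeq promoter table for GRCh38.p14 (a window around each start site), 8 of the 10 members were matched. E2F5 and E2F8 had no entry, so their promoters were not searched. The words TTTCCCGC, TTTCGCGC, TTTGCCGC and TTTGGCGC were searched on both strands as exact matches. Variants of these words were not searched, so capitals and absences refer to these words only. They occurred in the promoters of E2F1, E2F2, E2F3 and RBL1, that is in 4 of the 8 genes (50.0%), against 1090 of 27303 genes (3.99%) and 1164 of 35114 promoters (3.31%). Each of these words lay within the 100 bases upstream of the start site, which are printed below 5′ to 3′ on the strand of the gene, with the matched words in capitals. They correspond to chr20:33686386-33686485 (E2F1, minus strand), chr1:23531234-23531333 (E2F2, minus strand), chr6:20401779-20401878 (E2F3, plus strand) and chr20:37095998-37096097 (RBL1, minus strand).
E2F1: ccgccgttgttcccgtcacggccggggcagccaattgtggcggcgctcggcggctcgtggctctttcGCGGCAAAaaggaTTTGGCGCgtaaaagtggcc
E2F2: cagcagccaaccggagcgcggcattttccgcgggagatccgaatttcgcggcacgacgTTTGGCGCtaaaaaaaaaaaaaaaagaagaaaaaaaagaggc
E2F3: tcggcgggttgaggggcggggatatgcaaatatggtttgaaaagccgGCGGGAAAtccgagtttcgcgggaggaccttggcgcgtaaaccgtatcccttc
RBL1: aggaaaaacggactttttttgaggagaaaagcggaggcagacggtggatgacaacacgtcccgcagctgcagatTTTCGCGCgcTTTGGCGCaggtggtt

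Counted from the start site, the words began at -33 and -20 in E2F1, at -42 in E2F2, at -53 in E2F3 and at -26 and -16 in RBL1. The windows of E2F4, E2F6 and E2F7 held none of these exact words. Neither did the second start of E2F3 or the RB1 entry, whose start at 48476450 of chromosome 13 lies inside the gene. CCAAT, the box bound by NF-Y, stood 4 times in the windows of E2F7 and of the upstream E2F3 start and 3 times in that of E2F1, and 34.6% of all promoters held at least 1 on either strand. A match describes letters only and is not a measured binding site. The 4 genes with a word did not move alike. E2F3 rose, RBL1 fell, E2F1 differed by a log2 value of 0.10 that turned under other scalings, and E2F2 did not pass the test.

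Upon AZD4573 treatment, transcripts of 6 members (E2F4, E2F5, E2F6, E2F7, E2F8 and RBL1) were lower and those of E2F1 and E2F3 were higher at an adjusted p under 0.05 (quasi-likelihood test of edgeR, p-values adjusted by Benjamini-Hochberg across the 17678 genes). Those of E2F2 and RB1 did not pass. By that rule, 37.4% of all genes tested fell and 37.3% rose. With a fold change of at least 1.5 as well, 5 members were lower and 1 was higher, against 23.7% and 22.7% of all genes. The median log2 fold change was -0.66 over the 10 members and 0.03 over all genes, a description with no test. CPM values from here on are scaled by TMM, which assumes that most genes do not change. Messenger RNAs encoded by the mitochondrial genome, which RNA polymerase II does not make, made up 3.04% to 3.22% of the counts with DMSO and 4.67% to 4.98% with AZD4573. With the libraries scaled to those 13 mRNAs, the median over all genes went from 0.03 to -0.71. It left 8 members lower and E2F3 higher, with 67.2% of all genes lower and 12.1% higher. Directions below refer to TMM and are relative to most genes, and where a direction turns under the mitochondrial scaling this is stated.

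**Figure D1:**
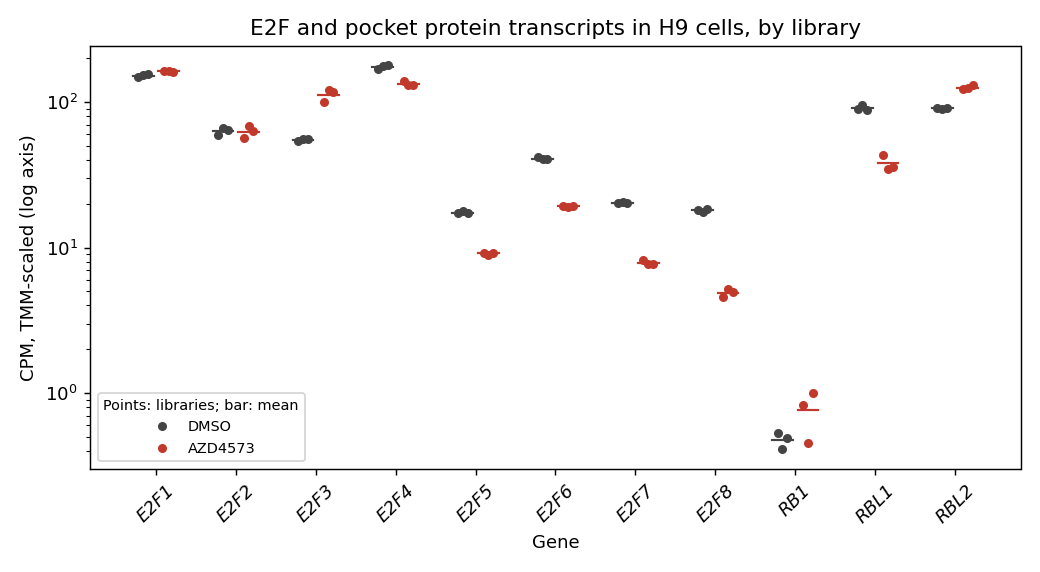
TMM-scaled CPM (log axis) of the 10 members and RBL2 in each library, with DMSO in dark grey, AZD4573 in red and horizontal bars at group means. E2F3 and RBL2 lie higher with AZD4573 (RBL2 lies lower when scaled to mitochondrial mRNAs), E2F4 to E2F8 and RBL1 lie lower, the E2F2 and RB1 groups overlap, and RB1 lies near or under 1 CPM throughout.

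Among the activators, E2F3 (chr6:20401879-20493714, plus strand, GRCh38) was the member with the largest rise. Its transcripts stood at 53.9, 55.7 and 55.9 CPM with DMSO and at 101, 120.4 and 116 CPM with AZD4573. Every AZD4573 library was above every DMSO library, and 85.0% of tested genes had a lower log2 fold change than E2F3. The fold change was 2.04 (log2 1.03, SE 0.0617, adjusted p = 4.7e-09, edgeR), and it passed the test in each of 13 alternatives, mitochondrial scaling included (log2 0.29). E2F3P1, a pseudogene copy that could share reads, held 36 to 97 counts in a library, with overlapping groups and a log2 difference of 0.99 (SE 0.300, adjusted p = 0.0087, edgeR), or 0.25 with mitochondrial scaling (adjusted p = 0.45). How reads were divided between the copy and E2F3 was not tested.

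E2F1 (chr20:33675477-33686385, minus strand), the activator also known for its link to apoptosis, differed little between groups. Its levels were 148, 153 and 155 CPM with DMSO and 163, 164 and 160.2 CPM with AZD4573. The groups did not overlap, yet the log2 difference was 0.10 (SE 0.0396, 95% interval 0.01 to 0.18, adjusted p = 0.042, edgeR). The call held in 2 of 13 alternatives (RLE factors, and a stricter filter on low counts) and was lost with any 1 of the 6 libraries left out. The log2 value was -0.01 when only library size was used and -0.64 with mitochondrial scaling, so that E2F1 has no stable direction here.

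E2F2 (chr1:23506438-23531233, minus strand) had 59.5, 66.5 and 64.1 CPM with DMSO and 56.5, 68.2 and 62.8 CPM with AZD4573. The groups overlapped and the lowest and highest libraries were both of AZD4573. The log2 difference was -0.02 (SE 0.0667, 95% interval -0.16 to 0.13, adjusted p = 0.81, edgeR), which leaves room for a change of about that interval in either direction. Scaled to the mitochondrial mRNAs, it was -0.76.

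E2F4 (chr16:67192155-67198918, plus strand), the repressor usually bound to RBL1 or RBL2 in resting cells, moved less than the other repressors. It stood at 168, 176 and 179 CPM with DMSO and at 139.6, 132 and 130.2 CPM with AZD4573. The ranges did not overlap, and E2F4 fell by 0.38 on the log2 scale (SE 0.0445, adjusted p = 3.5e-06, edgeR). The fold change lay under 1.5.

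E2F5 (chr8:85177154-85217158, plus strand), the other partner of the RBL1 and RBL2 proteins, stood at 17.1, 17.8 and 17.2 CPM with DMSO and at 9.22, 8.89 and 9.21 CPM with AZD4573. All AZD4573 values lay below all DMSO values, and the log2 difference was -0.93 (SE 0.0678, adjusted p = 3e-08, edgeR). E2F5 shares 997 exonic bases with RBIS on the opposite strand, and the counting ignored strand. RBIS rose by 0.20 on the log2 scale (adjusted p = 0.026, edgeR) with TMM and turned to -0.54 with mitochondrial scaling, and its reads and those of E2F5 could not be told apart over these bases.

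E2F6 (chr2:11444375-11466177, minus strand), which lacks the domain that pocket proteins bind, was at 41.6, 40.5 and 40.5 CPM with DMSO and at 19.2, 19.0 and 19.4 CPM with AZD4573. The libraries of each group were close together and far from the other group. The log2 difference was -1.09 (SE 0.0525, adjusted p = 6.6e-10, edgeR). The pseudogene E2F6P4 held 26 to 41 counts in a library.

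The atypical repressors showed the largest falls among the E2F genes. E2F7 (chr12:77021248-77065569, minus strand) stood at 20.2, 20.6 and 20.2 CPM with DMSO and at 8.25, 7.68 and 7.65 CPM with AZD4573. These groups did not overlap, and the log2 difference was -1.37 (SE 0.0686, adjusted p = 9.2e-10, edgeR).
E2F8 (chr11:19224063-19241620, minus strand) was at 18.2, 17.4 and 18.3 CPM with DMSO and at 4.56, 5.19 and 4.96 CPM with AZD4573. All AZD4573 libraries lay well below. Its level was 27.3% of that with DMSO (log2 -1.87, SE 0.0795, adjusted p = 2.5e-10, edgeR), and only 3.65% of tested genes had a lower log2 fold change. E2F7 and E2F8, which dampen the activators' program, were reduced most, while E2F1 and E2F2 were near their DMSO levels with TMM and lower with mitochondrial scaling.

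**Figure D2:**
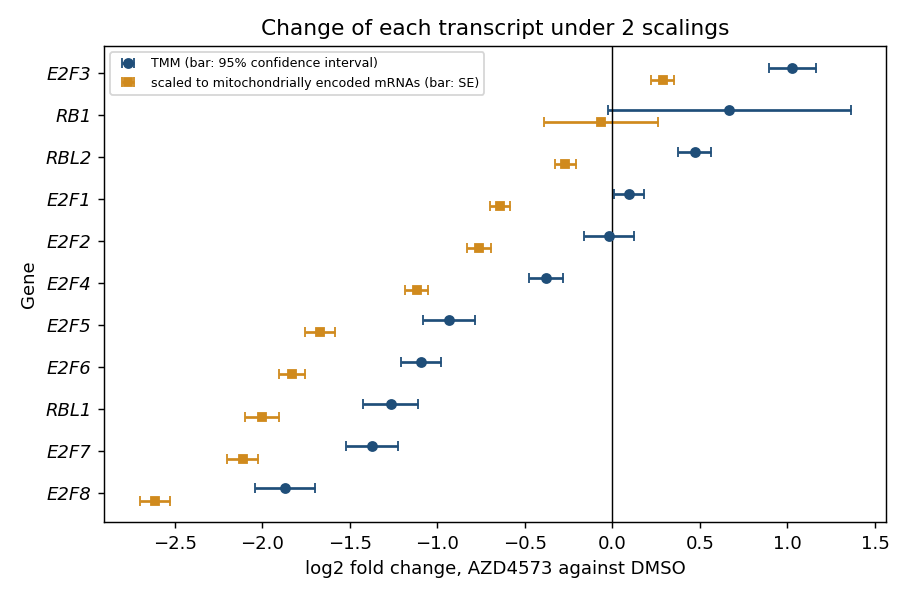
log2 fold change (AZD4573 against DMSO) of the members and RBL2 with TMM scaling (blue, 95% confidence interval) and with scaling to mitochondrially encoded mRNAs (orange, SE). E2F4 to E2F8 and RBL1 lie below 0 and E2F3 above 0 under both, whereas RBL2, E2F1 and RB1 lie above 0 with TMM and below 0 with mitochondrial scaling.

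RBL1 (chr20:36996349-37095997, minus strand) encodes a pocket protein that works with E2F4 and E2F5. It was at 89.7, 95.1 and 88.4 CPM with DMSO and at 43.1, 34.8 and 35.8 CPM with AZD4573. The 3 AZD4573 libraries all lay under the DMSO range, with replicate 1 the highest of them. The log2 difference was -1.27 (SE 0.0714, adjusted p = 2.6e-09, edgeR). RBL1 shares 213 exonic bases with an unnamed gene on the opposite strand.

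RBL2, the pocket protein gene outside the chosen members, took the opposite course with TMM scaling. It had 91.1, 89.9 and 90.6 CPM with DMSO and 122, 124 and 129.8 CPM with AZD4573, and the groups did not overlap. It rose by 0.47 on the log2 scale (SE 0.0425, adjusted p = 2.8e-07, edgeR), but was lower, at -0.27, with mitochondrial scaling. RBL2 shares 721 exonic bases with an unnamed gene and fewer with AKTIP, both on the opposite strand. The ratio of RBL1 to RBL2, which does not depend on the scaling of libraries but does on the transcript lengths, was 0.859 ± 0.0381 (SD, n = 3) with DMSO and 0.259 ± 0.0369 with AZD4573, per kilobase of canonical transcript. With the union of annotated exons as length, an alternative chosen after seeing the data, it was 1.37 ± 0.0608 and 0.413 ± 0.0588, so that RBL1 lay above RBL2 with DMSO by that length and below it by the other. The ratio was not tested.

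RB1 (chr13:48303744-48599436, plus strand), the retinoblastoma gene, was barely expressed in these cells. It had 42, 30 and 36 counts with DMSO and 42, 26 and 61 counts with AZD4573, or 0.535, 0.410 and 0.489 CPM against 0.825, 0.456 and 0.999 CPM. The groups overlapped, through AZD4573 replicate 2. The log2 difference was 0.67 (SE 0.320, 95% interval -0.02 to 1.36, adjusted p = 0.075, edgeR), and without that library it was 0.93 (adjusted p = 0.015, in a range of 0.015 to 0.86 over the 13 alternatives). With mitochondrial scaling it was -0.07, so that a direction was not detectable at this depth. No annotated gene shares an exon base with RB1. Its neighbours were measured, chosen after their values were seen. ITM2B upstream stood at 129 CPM with DMSO and 185 CPM with AZD4573 (log2 0.52 with TMM, -0.22 with mitochondrial scaling), and LPAR6, which lies in an intron of RB1 on the opposite strand, at 35.2 and 12.1 CPM. RCBTB2, on the opposite strand within the annotated span of RB1, was at 8.92 and 7.58 CPM, and CYSLTR2 downstream of RB1 had at most 1 count in a library.

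The dimerization partners TFDP1 and TFDP2 both rose with TMM scaling, by 0.26 (SE 0.0390, adjusted p = 4e-05, edgeR; 215 ± 5.45 to 257 ± 2.79 CPM) and 0.37 (SE 0.0392, adjusted p = 1.4e-06, edgeR; 237 ± 5.75 to 306 ± 5.97 CPM) on the log2 scale (SD, n = 3), and were lower with mitochondrial scaling. TFDP3 had at most 1 count. TFDP3 was therefore not tested.

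Compared per kilobase of canonical transcript, the order of the E2F and pocket genes changed upon treatment. With DMSO it was E2F4 (82.6 CPM per kb), E2F1 (56.4), RBL2 (18.7), RBL1 (16.02), E2F6 (12.7), E2F2 (12.2), E2F3 (11.0), E2F5 (8.86), E2F8 (4.85), E2F7 (3.56) and RB1 (0.100). Among neighbours in this order, E2F6 and E2F2 overlapped between libraries. With AZD4573 it was E2F4 (63.4), E2F1 (60.3), RBL2 (25.8), E2F3 (22.3), E2F2 (12.0), RBL1 (6.66), E2F6 (5.94), E2F5 (4.64), E2F7 (1.37), E2F8 (1.32) and RB1 (0.159), and E2F7 and E2F8 overlapped. By this length, E2F3 stood below RBL1 and E2F6 with DMSO and above both with AZD4573. The order depends on the length. With the union of annotated exons, it was E2F1, E2F4, RBL1, E2F2, RBL2, E2F3, E2F6, E2F8, E2F7, E2F5 and RB1 with DMSO, where E2F3 already stood above E2F6, and E2F1, E2F4, E2F3, RBL2, E2F2, RBL1, E2F6, E2F5, E2F7, E2F8 and RB1 with AZD4573. E2F3 stood below RBL1 with DMSO and above it with AZD4573 by either length.

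Of the summed E2F levels per kilobase, E2F1, E2F2 and E2F3 together took 41.4% ± 0.151 (SD, n = 3) with DMSO and 55.2% ± 1.56 with AZD4573. E2F4 and E2F5 took 47.6% and 39.7%, E2F6 took 6.59% and 3.46%, and E2F7 and E2F8 took 4.38% and 1.57%. The share of E2F3 alone was 5.70% and 13.03%. With the union of exons as length, the activators' share was 53.3% and 67.1%. These shares add to 100% and were not tested.

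**Figure D3:**
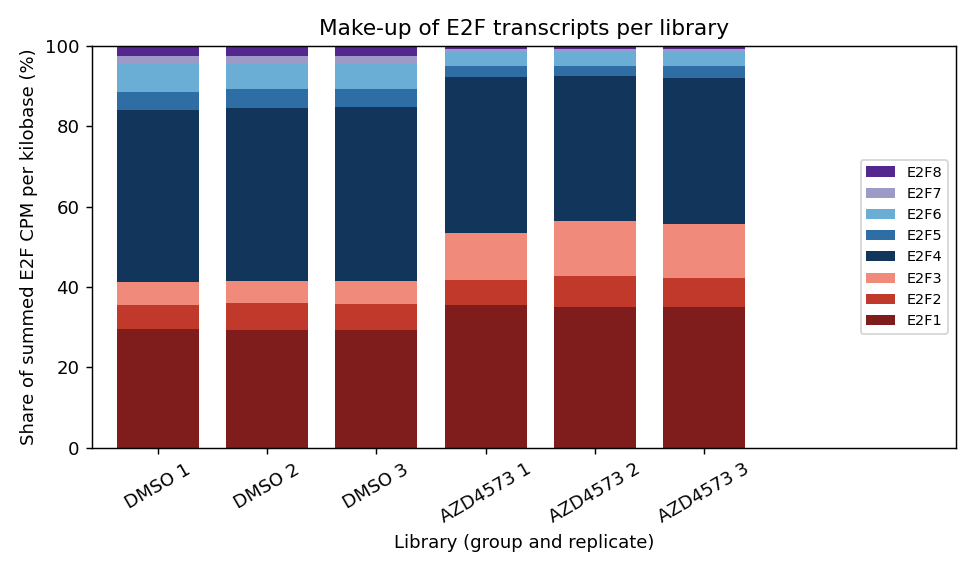
Share of each E2F gene in the summed E2F CPM per kilobase (%) in each of the 6 libraries, stacked from E2F1 at the bottom to E2F8 at the top. The activators (red) take 41.3% to 41.6% with DMSO and 53.5% to 56.5% with AZD4573, and the thin E2F7 and E2F8 bands narrow.

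Around the pocket proteins, the MuvB core and its MYB and FOXM1 partners form the DREAM and related complexes that set the timing of late cell cycle genes. Of 8 members tested, 4 fell, 2 rose with TMM scaling and 2 did not pass, against 37.4% lower and 37.3% higher over all genes, with a median log2 fold change of -0.33 against 0.03. LIN54 (-1.67, adjusted p = 3.3e-10), which contacts DNA, LIN9 (-1.33, adjusted p = 6.3e-10), LIN37 (-0.88, adjusted p = 2.4e-06) and LIN52 (-0.72, adjusted p = 6.8e-06) fell, all by edgeR. The partner MYBL1 (0.51, adjusted p = 6.1e-07) rose with TMM scaling and was lower with mitochondrial scaling. MYBL2 (0.11, adjusted p = 0.041) passed with overlapping groups, kept its call in 4 of 13 alternatives (adjusted p up to 0.93) and was lower with mitochondrial scaling, whereas RBBP4 (0.05, adjusted p = 0.24) and FOXM1 (0.09, adjusted p = 0.05) did not pass.

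Of the Polycomb partners that join E2F6, 8 of 10 fell and 1 rose (80% and 10%, against 37.4% and 37.3% of all genes), with a median log2 fold change of -0.99. RNF2, a ubiquitin ligase of the complex, was at 53.7 CPM with DMSO and 18.9 CPM with AZD4573 (log2 -1.51, adjusted p = 7.9e-10, edgeR). PCGF6 had a log2 fold change of -1.22 (adjusted p = 3.3e-09) and YAF2 of -1.22 (adjusted p = 8.5e-07). CBX3 had 0.14 (adjusted p = 0.0053), and its direction turned with mitochondrial scaling.

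For the kinases, D cyclins and kinase inhibitors that govern pocket protein phosphorylation, 4 of 11 tested genes fell and 6 rose (36.4% and 54.5%, against 37.4% and 37.3% of all genes), with a median of 0.27. With mitochondrial scaling 2 were higher, where 12.1% of all genes were. CCND2, a D cyclin, went from 631 CPM to 1320 CPM (log2 1.07, adjusted p = 3.7e-08, edgeR) and was also higher with mitochondrial scaling. CCND1, named here after its value was seen, lay furthest above 0 (log2 1.52) at only 0.402 CPM with DMSO and 1.16 CPM with AZD4573. CDKN1B, a kinase inhibitor, had 0.59 (adjusted p = 2.1e-07) and turned to -0.15 with mitochondrial scaling. CDKN2C (-0.46, adjusted p = 1e-05), CDKN2D (-0.21, adjusted p = 0.0054) and CDK6 (-0.20, adjusted p = 0.004) fell. CDKN2A and CDKN2B, whose products inhibit CDK4 and CDK6, had 0 counts in every library.

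Among 56 G1/S genes known as targets of activator E2Fs, 44 were lower, 8 were higher and 4 did not pass, with a median log2 fold change of -0.51. The lower genes made up 78.6% and the higher ones 14.3%, against 37.4% and 37.3% of all genes. EXO1, an exonuclease of DNA repair, had 36.7 CPM with DMSO and 6.70 CPM with AZD4573 (log2 -2.46, adjusted p = 9.4e-11, edgeR), CCNE2, the E2 cyclin, -2.10 (adjusted p = 6.3e-10) and CLSPN, a checkpoint mediator, -1.66 (adjusted p = 1.5e-10). CDC45 of the replicative helicase (0.57, adjusted p = 2.4e-08) and TK1, the thymidine kinase (0.55, adjusted p = 1.3e-06), rose with TMM scaling. With mitochondrial scaling both turned and no gene of the list was higher, against 12.1% of all genes. E2F words stood in the promoters of 24 of 48 matched genes of this list (50.0%) and in 2 of 33 of the G2/M list (6.06%).

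Among 40 G2/M genes repressed through DREAM, 28 were lower (70%), 8 were higher (20%) and 4 did not pass, against 37.4% and 37.3% of all genes, with a median of -0.42. TTK, a spindle checkpoint kinase, had -1.93 (adjusted p = 3e-10, edgeR), ECT2, a cytokinesis factor, -1.41 (adjusted p = 4e-10), and CKAP2 -1.34 (adjusted p = 1.9e-09). CKS1B (0.56, adjusted p = 1.8e-07) and PRC1, a spindle midzone protein (0.54, adjusted p = 1.2e-07), rose with TMM scaling and turned with mitochondrial scaling. Both target lists were chosen with earlier results of these data known, so their counts are not independent evidence of a direction.

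**Figure D4:**
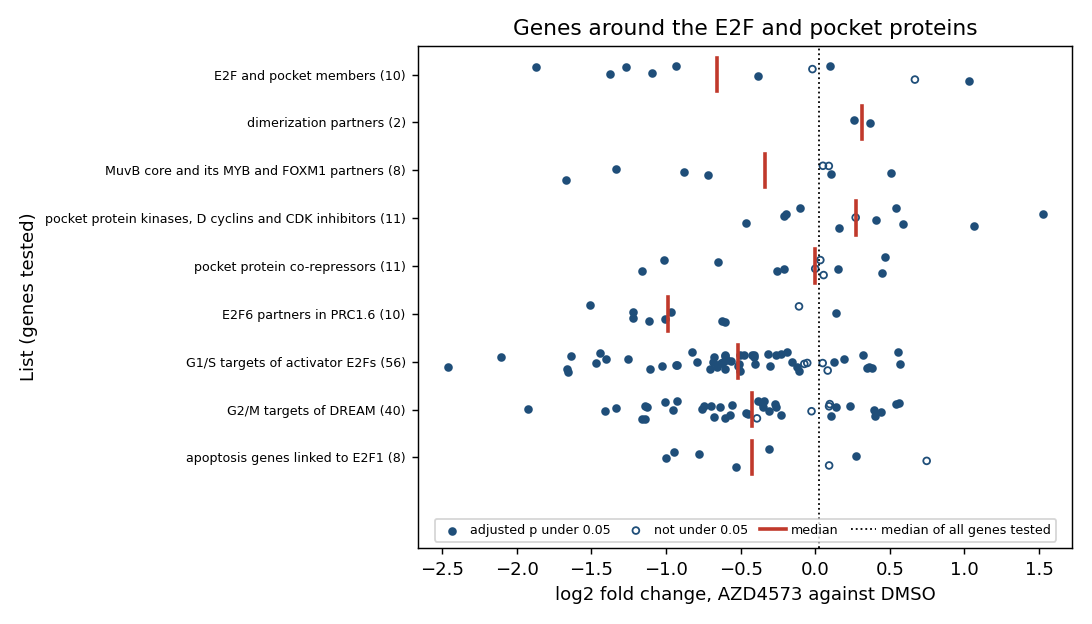
log2 fold change (AZD4573 against DMSO) of each tested gene in the member set and 8 surrounding lists, with filled points at an adjusted p under 0.05, red bars at list medians and a dotted line at the median of all genes (0.03). The Polycomb list of E2F6 and the G1/S list have medians of -0.99 and -0.51, and kinases and cyclins have 0.27, under TMM scaling. Scaling to mitochondrially encoded mRNAs turns many of the points above 0 below it.

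Gene span was set beside the changes. The protein-coding genes among those tested were split into 4 bins of span with near equal numbers of genes. From the shortest to the longest bin, their median log2 fold change was 0.05, -0.09, -0.19 and -0.06. E2F3 (log2 1.03), RBL1 (-1.27) and RB1, which did not pass the test, were in the longest bin. E2F5 (-0.93) and E2F7 (-1.37) were in bin 3, and E2F2 (-0.02), E2F6 (-1.09) and E2F8 (-1.87) in bin 2. E2F4 (-0.38) and E2F1 (0.10, with no stable direction) were in the shortest. A link between span and change was not tested. The profiles over 6 libraries nearest to E2F8 among 9505 genes were EPC1, HOXA9 and POLR3C (root mean square differences of 0.0584, 0.0606 and 0.0626 log2 units). Those nearest to E2F3 were COLGALT2, NFE2L2 and JMY (0.0245, 0.0251 and 0.0260). The likeness is a description over 6 libraries.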

How the data were processed

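Bulk RNA-seq libraries of H9 cells, 3 with DMSO and 3 with AZD4573, were used, each grouped by its label. The authors trimmed reads with Cutadapt 2.3, aligned them to GRCh38 with STAR 2.7.8a and deposited expected counts per gene from RSEM 1.3.3, whole numbers without normalization, from counting that ignores strand by default. The annotation release is not given in the sources used here. The labels describe poly(A) selection and the supplemental methods rRNA depletion. The 5 reporter entries had 0 counts and were left out.

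Counts were filtered with edgeR's filterByExpr (minimum count 10), scaled by TMM and compared with edgeR 4.0.16 (R 4.3.3), by its quasi-likelihood test without a replicate block, and p-values were adjusted by Benjamini-Hochberg. The test step was checked on simulated data in which few genes changed, as many up as down. That check does not cover changes as broad as those called here. DESeq2 1.42.0 was an alternative. CPM per kilobase used canonical transcripts of GENCODE 44, and log2 profiles used a prior count of 2. Genes named were all members, dimerization partners, RBL2, the MuvB genes and, per other list, the 3 largest falls and 2 largest rises with an adjusted p under 0.05 and at least 10 CPM. Some genes that met this rule, and some markers, are not reported here. Members, lists and tests were chosen with earlier results of these data known. Within groups, no pair of libraries agreed within counting noise (chi-square divided by its degrees of freedom, 5.63 to 21.6).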

Additional observations from a re-analysis of the deposited data

How the results depend on the processing

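The results were recomputed under the alternatives, which gave 893 values, each for 1 result under 1 alternative. Of these, 793 kept their direction and side of the threshold or stayed within the set margin. That margin was a factor of 1.5 for counts of genes and the SD between libraries for levels per kilobase. Of the 130 values for log2 fold changes of the 10 members under 13 alternatives, 112 did so. Of 20 member levels per kilobase, 7 did so and 13 moved with the union of exons as length. E2F3 to E2F8 and RBL1 passed in each alternative, including library size only, RLE factors, no filter, DESeq2 and each library left out. Members higher numbered 1 with library size only, mitochondrial scaling, no filter, the replicate block, DESeq2 or a fold change of at least 1.5, and 1 to 2 with 1 library left out, where 2 came without AZD4573 replicate 2, by E2F3 and RB1. E2F1 was -0.0082 with library size only and -0.64 with mitochondrial scaling, and E2F2 was 0.019 with at least 10 counts in every library and -0.090 to 0.044 with 1 library left out, positive (0.0059) without DMSO replicate 2 and without AZD4573 replicate 1. RB1 passed with at least 10 counts in every library (0.71, adjusted p = 0.041) and was -0.066 with mitochondrial scaling.

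With mitochondrial scaling, the log2 values turned to -0.48 (TFDP1), -0.37 (TFDP2), -0.27 (RBL2), -0.69 (RBBP4), -0.23 (MYBL1), -0.63 (MYBL2), -0.65 (FOXM1), -0.15 (CDKN1B), -0.29 (SMARCA2), -0.27 (HDAC1), -0.60 (CBX3), -0.19 (TK1), -0.17 (CDC45), -0.20 (PRC1), -0.18 (CKS1B) and -0.47 (PMAIP1). RBBP4 and FOXM1 also turned with library size only (-0.053 and -0.013). The same scaling gave 2 lower and 0 higher dimerization partners, 8 lower and 0 higher MuvB genes, and 11 lower and 0 higher co-repressors. Of the kinase, cyclin and inhibitor genes 7 were lower and 2 higher, and 0 Polycomb, G1/S, G2/M and apoptosis genes were higher. These counts stand against 67.2% lower and 12.1% higher over all genes with that scaling. MuvB higher genes numbered 1 with library size only, no filter, the replicate block or DESeq2, 4 with at least 10 counts in every library, and 1 to 2 with 1 library left out (MYBL2 was lost without DMSO replicate 2 or 3 or AZD4573 replicate 2 or 3). Polycomb genes higher were 0 with library size only and no filter, and 0 to 1 with 1 library left out (CBX3 was lost without DMSO replicate 3). G2/M genes higher were 5 with library size only, and apoptosis genes higher 2 with at least 10 counts in every library. These scalings differ in the reference they take, and the cause was not tested.

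The labels do not say whether libraries with the same replicate number were paired. Correlations of same-numbered deviations were -0.02, 0.04 and 0.03, which cannot exclude a pairing in the handling of the cells. The replicate block left 6 members lower and 1 higher. Depth limits RB1 most, with at most 61 counts in a library.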

Other observations

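Of 11 pocket protein co-repressors tested, 5 were lower, 3 were higher and 3 did not pass (45.5% lower and 27.3% higher, near the 37.4% and 37.3% of all genes), with a median log2 fold change of 0.00 against 0.03 over all genes. KDM5A, a histone H3 lysine demethylase that binds the RB1 protein, had 92.4 CPM with DMSO and 41.4 CPM with AZD4573 (log2 -1.16, adjusted p = 1e-08, edgeR). SIN3A had -1.02 (adjusted p = 3.1e-10) and SUV39H1, a histone methyltransferase, -0.65 (adjusted p = 5.6e-08). HDAC1, a histone deacetylase, had 0.47 (adjusted p = 2.1e-07) and SMARCA2, a remodelling ATPase, 0.45 (adjusted p = 3e-07), and both turned with mitochondrial scaling.

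Of 9 apoptosis genes linked to E2F1, 8 were tested, 5 were lower (62.5%) and 1 was higher (12.5%), against 37.4% and 37.3% of all genes, with a median of -0.42. The apoptosome gene APAF1 (-0.78, adjusted p = 2.7e-07, edgeR) fell, whereas PMAIP1 (0.27, adjusted p = 0.00026) rose with TMM scaling and turned with mitochondrial scaling. TP73 was too low to test.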
